A study of Homo sapiens with 4 samples.

Results

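The genes described here are 39 interferon-stimulated genes, chosen by symbol as a set of widely used readouts of interferon signalling, in 4 human precursor B-cell acute lymphoblastic leukaemia (ALL) lines. The genes were chosen with earlier results of these data known. Shares of members set beside shares of all genes are therefore descriptions of this list only. The translocation t(4;11), which rearranges the MLL gene, is present in RS4;11 and SEM, here called the translocation lines. NALM6 and REH lack it. Each line was grown in RPMI medium with fetal bovine serum, no interferon treatment is given in the labels, and its total RNA was hybridised to 1 Affymetrix whole-transcript array. Of the 39 genes, 37 had a probe set with their symbol alone and were analysed, out of 18377 genes on the array. STAT2 had none, and the only probe set of GBP1 also lists GBP3 and GBP1P1, so that both are not analysed here. No measured member had a second probe set of its own.

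Each value is an RMA level on a log2 scale, so that a difference of 1 is a 2-fold difference. Probe sets differ in brightness for reasons other than RNA amount, and levels are therefore compared between lines and not between genes. The median of all gene values (6.75) is used only to say where on the scale a probe set lies. A group holds 2 established lines, each a separate leukaemia with its own further lesions, and any of these enters the group difference. The 6 measured precursor B-cell markers of 8 listed lay above that median in RS4;11, SEM and NALM6, and 5 of them did in REH. Of these, CD79A, CD22 and PAX5 lay at 11.05 or above in every line, whereas VPREB1, a surrogate light chain of the pre-B receptor, was at 11.35 and 7.57 in RS4;11 and SEM, against 10.86 and 5.51 in NALM6 and REH. CD79B, a signalling chain of the B-cell receptor, was at 9.99 in RS4;11 and 7.63 in SEM, against 10.87 in NALM6 and 11.02 in REH. IGLL1, the other surrogate light chain gene, was at 10.78 and 8.66 in RS4;11 and SEM, against 10.70 and 10.73 in NALM6 and REH, so that SEM was lowest for CD79B and IGLL1. T cell markers stayed at or below 5.35 in every line, the erythroid gene HBB at or below 4.94, and CLEC4C, a marker of interferon-producing plasmacytoid dendritic cells, at or below 4.91. Of the other plasmacytoid markers, GZMB lay between 6.01 and 6.24, and IL3RA was at 5.71 and 7.46 in RS4;11 and SEM, against 7.15 and 5.39 in NALM6 and REH. The monocyte marker CD14 lay between 4.59 and 4.81, whereas LYZ was at 8.27 and 8.50 in RS4;11 and SEM, against 9.65 and 5.80 in NALM6 and REH. CSF1R, the receptor of a macrophage growth factor, was at 5.88 in RS4;11 and 7.69 in SEM, against 5.53 in NALM6 and 5.66 in REH. The NK cell and cytotoxic granule gene NKG7 was at 10.99 in RS4;11 and 9.13 in SEM, against 6.39 in NALM6 and 7.11 in REH, while the NK cell genes NCAM1 and KLRD1 were at or below 5.48. The part of these marker differences in the results was not tested. In bulk RNA, fewer expressing cells and less RNA per cell cannot be told apart.

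Interferons are secreted cytokines that cells release on sensing foreign or misplaced nucleic acid. Type I interferons bind the receptor made of IFNAR1 and IFNAR2, the kinases JAK1 and TYK2 are activated, and a complex that holds STAT2 and IRF9 binds the interferon-stimulated response element (ISRE) in promoters. Interferon gamma acts through the gamma-activated site (GAS). The induced genes encode sensors of viral RNA and DNA, enzymes that degrade RNA or stop translation, and proteins that block entry or release of viruses. Many of them also have a basal level without added interferon, which is what untreated cell lines show.

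RefSeq promoter windows of build GRCh38.p14, from 250 bases before to 50 bases after a start site, were available for 32 of the 39 genes. The ISRE core searched was GAAA, any 2 bases and GAAA again, on either strand, and it occurred in a window of 23 of the 32 genes (71.9%), against 1195 of 27305 genes in the whole table (4.38%). Per window the share in the table was 3.57% of 35116. The GAS core searched was TTCNNNGAA, which reads the same on both strands, and it occurred in 10 of the 32 genes (31.2%) against 9.38% of all genes. Cores of one motif may overlap each other and those of the other motif. A core is a match of letters, not a measured binding site. The stretches below are the 250 bases before the start of 6 of the genes whose lines differed most or whose groups stood farthest apart, and the bases between the divergent starts of PARP9 and DTX3L. They are written 5′ to 3′ on the plus strand, with ISRE cores in capitals.

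IFIT3, chr10:89327747-89327996, plus strand: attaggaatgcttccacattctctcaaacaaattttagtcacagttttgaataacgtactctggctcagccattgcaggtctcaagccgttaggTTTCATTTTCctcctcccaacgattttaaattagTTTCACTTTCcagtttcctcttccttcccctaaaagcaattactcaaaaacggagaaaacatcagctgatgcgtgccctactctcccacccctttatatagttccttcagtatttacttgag
IFIT1, chr10:89392373-89392622, plus strand: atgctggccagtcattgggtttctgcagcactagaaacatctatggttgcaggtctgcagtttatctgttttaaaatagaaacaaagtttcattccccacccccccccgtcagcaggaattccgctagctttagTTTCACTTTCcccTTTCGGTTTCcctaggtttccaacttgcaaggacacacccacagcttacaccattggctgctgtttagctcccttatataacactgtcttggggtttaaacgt
HERC5, chr4:88456869-88457118, plus strand: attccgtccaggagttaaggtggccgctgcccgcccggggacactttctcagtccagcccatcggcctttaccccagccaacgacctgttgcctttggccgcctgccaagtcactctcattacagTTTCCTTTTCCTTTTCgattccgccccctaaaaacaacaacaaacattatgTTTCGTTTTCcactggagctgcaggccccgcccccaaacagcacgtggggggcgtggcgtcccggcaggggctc
RSAD2, chr2:6877527-6877776, plus strand: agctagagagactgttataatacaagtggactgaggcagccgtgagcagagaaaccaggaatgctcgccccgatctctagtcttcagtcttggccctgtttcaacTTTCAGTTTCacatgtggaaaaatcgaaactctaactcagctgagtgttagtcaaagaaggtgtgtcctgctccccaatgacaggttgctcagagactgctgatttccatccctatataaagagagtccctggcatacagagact
IFI44, chr1:78649539-78649788, plus strand: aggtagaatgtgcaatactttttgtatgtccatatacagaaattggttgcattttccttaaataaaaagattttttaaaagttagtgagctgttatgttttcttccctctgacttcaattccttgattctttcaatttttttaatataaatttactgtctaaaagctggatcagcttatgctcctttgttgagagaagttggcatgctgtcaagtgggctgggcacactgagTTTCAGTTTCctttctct
OAS3, chr12:112938224-112938473, plus strand: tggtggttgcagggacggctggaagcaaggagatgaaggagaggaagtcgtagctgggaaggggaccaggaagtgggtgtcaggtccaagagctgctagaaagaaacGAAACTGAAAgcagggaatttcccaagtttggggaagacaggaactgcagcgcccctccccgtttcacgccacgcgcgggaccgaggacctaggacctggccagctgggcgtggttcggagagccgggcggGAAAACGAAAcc
PARP9 to DTX3L, chr3:122564301-122564341, plus strand: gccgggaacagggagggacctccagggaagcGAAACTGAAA

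IFIT3, RSAD2 and IFI44 each have 2 listed starts, of which the first is shown. The second window of RSAD2 holds no core, and both windows of IFI44 hold the same one. HERC5 holds 3 cores, of which 2 overlap in the run of capitals. Between PARP9, which runs on the minus strand, and DTX3L lie 37 bases, and the core shown runs into the first 4 bases of DTX3L. HERC6, the neighbour of HERC5, had no ISRE core in its window, and neither did IFI16, IFI35, IRF1, IRF9, OAS1, SAMD9L, STAT2 or XAF1. No match says only that these letters are not in these windows.

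**Figure D1:**
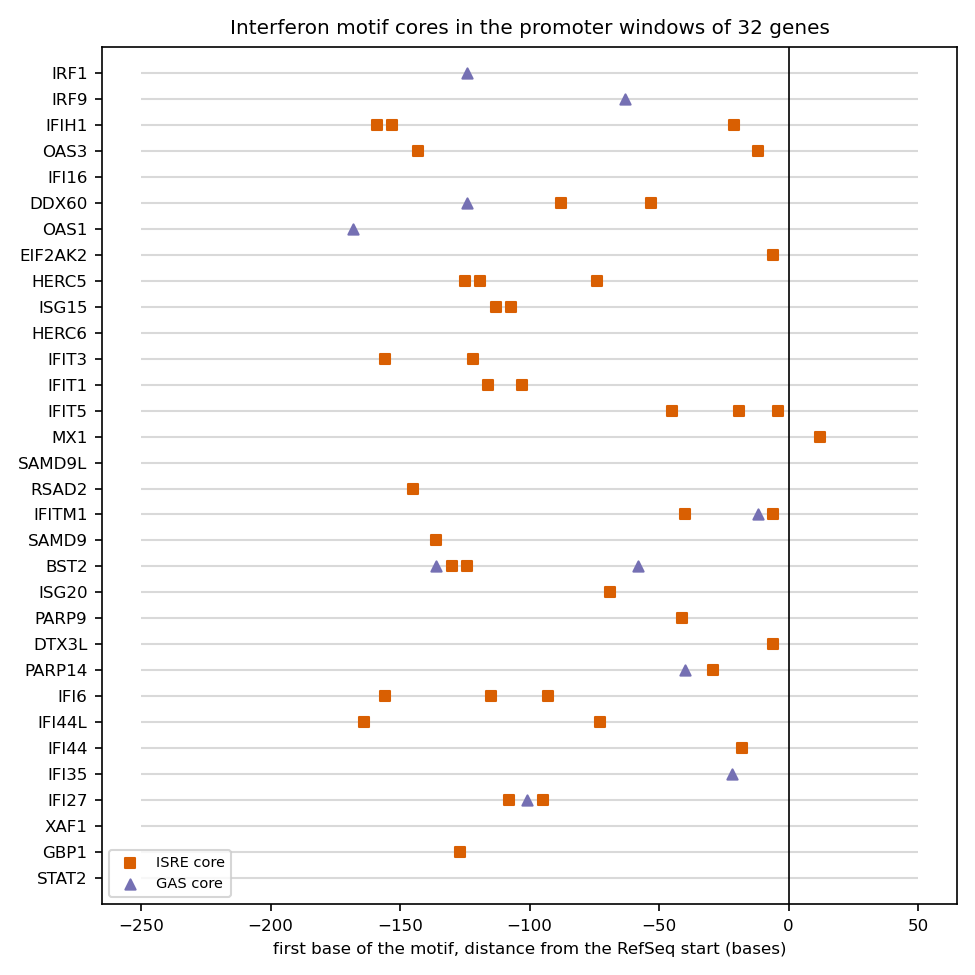
Position of ISRE cores (squares) and GAS cores (triangles) in the promoter window of 32 interferon-stimulated genes, 1 row per gene, with the distance of the first base of each motif from the RefSeq start in bases on the x axis. For genes with several starts, the window with most ISRE cores is drawn, so that the GAS core in another window of MX1 is not shown. Most ISRE cores lie before the start, and the 9 rows without a square are the genes with no ISRE core.

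No interferon-stimulated gene passed the test between the groups, but 27 of the 37 members had a lower mean with t(4;11) (73%, against 47.1% of all genes) and 10 a higher one. Of all genes tested, 0.0218% passed limma's threshold of an adjusted p of 0.05 (0.0109% higher and 0.0109% lower), and the smallest adjusted p among members was 0.168, for IFIT3. In simulations limma called only 3.2% of 2-fold changes, so that missing this threshold does not show that a 2-fold difference is absent. At an unadjusted p under 0.05 there were 10 members (27%, against 9.39% of all genes), 7 lower (18.9%, against 4.79% of all genes) and 3 higher (8.11%, against 4.6%). The 7 were IFIT1, IFIT2, IFIT3, MX1, HERC5, PARP9 and DTX3L, and the 3 were ISG20, XAF1 and BST2. The median difference over the members was -0.21 on the log2 scale, against 0.01 over all genes, with a range from -1.71 (HERC5) to 1.14 (XAF1). This median moved with the lines used, to -0.016 without REH and -0.69 without NALM6. Members with a lower mean numbered 19 of 37 without REH, 23 without SEM, 26 without RS4;11 and 28 without NALM6. Shares of all genes at these settings are not given here. Among the 43 further interferon-induced genes described below, 22 had a lower and 21 a higher mean, with a median difference of -0.04.

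The groups were parted by at least 2-fold, so that both translocation lines lay below both other lines by 1 or more, in 3 members (IFIT3, HERC5 and PARP9, or 8.11%, against 0.876% of all genes). In the other direction there were 0 members, against 0.963% of all genes. The gap was 1.26 for IFIT3, 1.0011 for HERC5 and 1.0007 for PARP9, which lie just inside this threshold, and 0.84 for IFIT1 and 0.81 for MX1 just outside it. After a repeated quantile normalization the gap of HERC5 was 0.988, under the threshold, so that IFIT3 and PARP9 were left. Members parted downward numbered 7 without RS4;11 (18.9%, against 2.03% of all genes at that setting) and 3 without SEM (8.11%, against 1.86%). They numbered 11 without NALM6 (29.7%, against 3.71%) and 4 without REH (10.8%, against 2.34%). Leaving out a line can only keep or widen a gap, so these counts could not fall below 3. Parted upward were XAF1 without RS4;11 (2.7%, against 2.95%) and HERC6 without REH (2.7%, against 2.42%). The groups did not overlap at all in 12 members that were lower in the translocation lines (32.4%, against 19.8% of all genes) and in 5 that were higher (13.5%, against 23%).

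**Figure D2:**
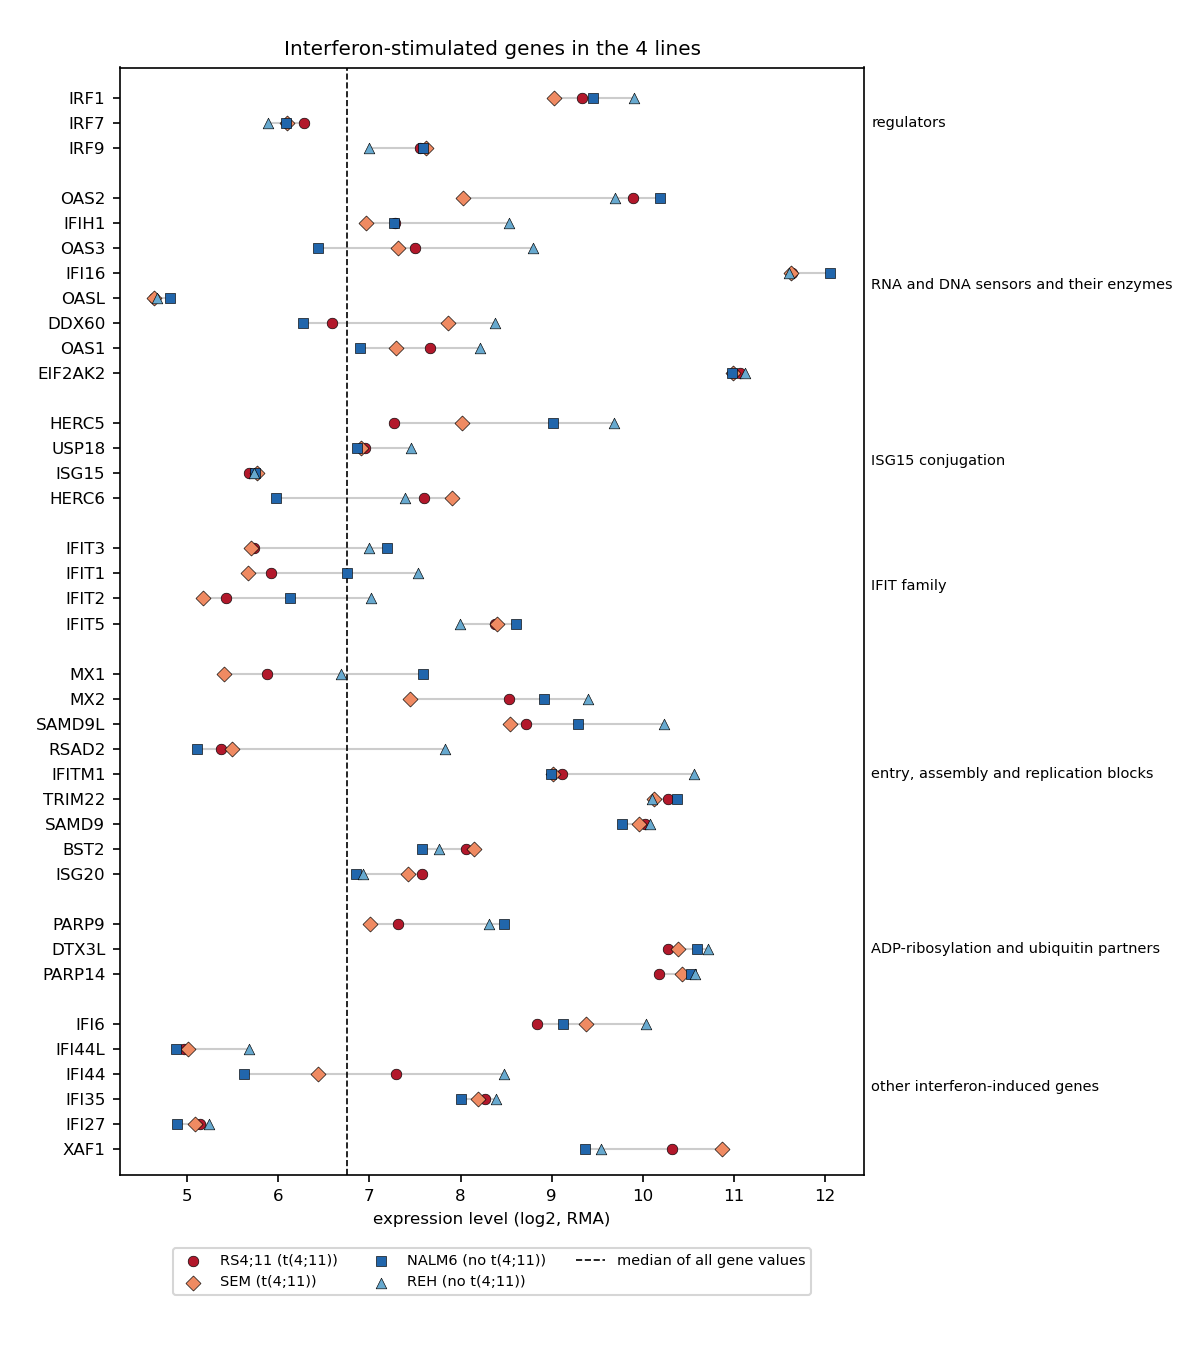
RMA level (log2, x axis) of the 37 interferon-stimulated genes in RS4;11 and SEM (circles and diamonds, with t(4;11)) and in NALM6 and REH (squares and triangles, without it), 1 array each, grouped by role. The dashed line is the median of all gene values (6.75). IFIT1, IFIT2 and IFIT3 lie lower in both translocation lines than in both other lines, and RSAD2 is high in REH alone.

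Among the regulators, IRF1, an interferon-induced transcription factor, was at 9.33 in RS4;11 and 9.03 in SEM, against 9.45 in NALM6 and 9.91 in REH. Its difference was -0.50 (SE 0.23, adjusted p = 0.636). IRF7, the factor that amplifies production of interferon alpha, was at 6.29 and 6.09 in RS4;11 and SEM, against 6.09 and 5.89 in NALM6 and REH, all below the median of all gene values. IRF9, the DNA-binding partner of STAT2, was at 7.56 and 7.62 in RS4;11 and SEM, against 7.59 in NALM6 and 6.99 in REH. For IRF7 and IRF9 the differences were 0.20 (SE 0.14, adjusted p = 0.736) and 0.30 (SE 0.25, adjusted p = 0.75). Without REH they were -0.27 for IRF1, 0.10 for IRF7 and 0.0048 for IRF9, and without NALM6 0.60 for IRF9. None of these 3 genes varied by as much as 2-fold over the lines, and REH, in which most other members were highest, had the lowest IRF7 and IRF9.

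The IFIT family encodes proteins that bind viral RNA ends and stop its translation, and 3 of its 4 members were lower in the translocation lines. IFIT3, which stabilises IFIT1 on RNA, was at 5.74 in RS4;11 and 5.70 in SEM, against 7.19 in NALM6 and 6.997 in REH. The means were 5.72 ± 0.02 with t(4;11) and 7.09 ± 0.14 without it (SD, n = 2 lines each), which is 2.59-fold apart (difference -1.37, SE 0.11, adjusted p = 0.168). IFIT1, which binds caps that lack a methyl mark, was at 5.92 and 5.67 in RS4;11 and SEM, against 6.76 in NALM6 and 7.54 in REH (difference -1.35, SE 0.33, adjusted p = 0.442). IFIT2 followed the same order of lines as IFIT1, at 5.43 and 5.18 in RS4;11 and SEM, against 6.13 and 7.02 in NALM6 and REH (difference -1.27, SE 0.37, adjusted p = 0.5, and -0.82 without REH). In each of these genes both translocation lines lay below both others, as in 19.8% of all genes. Both also lay under the median of all gene values. IFIT5 did not share this order, at 8.38 and 8.40 in RS4;11 and SEM, against 8.61 in NALM6 and 7.99 in REH (difference 0.09, SE 0.25, adjusted p = 0.935).

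The ISG15 conjugation genes did not share a direction. ISG15 itself, the ubiquitin-like modifier, varied least of all members, at 5.68 and 5.76 in RS4;11 and SEM, against 5.75 and 5.74 in NALM6 and REH, a level below the median of all gene values. HERC5, its main ligase in human cells, was at 7.28 and 8.02 in RS4;11 and SEM, against 9.02 in NALM6 and 9.69 in REH. Its means were 7.65 ± 0.52 with t(4;11) and 9.35 ± 0.47 without it (SD, n = 2 lines each), or 3.26-fold apart (difference -1.71, SE 0.40, adjusted p = 0.426). HERC6, the main ISG15 ligase in mouse, lay the other way, at 7.60 and 7.90 in RS4;11 and SEM, against 5.97 in NALM6 and 7.39 in REH (difference 1.07, SE 0.57, adjusted p = 0.686). The HERC6 difference was 0.36 without NALM6 and 1.78 without REH. USP18, which removes ISG15 and dampens the type I receptor, lay between 6.87 (NALM6) and 7.45 (REH). A second probe set that USP18 shares with the pseudogene USP41P was at 9.92 and 8.88 in RS4;11 and SEM, against 9.37 and 8.71 in NALM6 and REH, so that its order of lines differs, and it was left out.

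Among the sensors and their enzymes, all 8 differences were below 0 (against 47.1% of all genes), of which 4 were smaller than their SE. Those of IFI16 (-0.1956, SE 0.1943) and OASL (-0.1013, SE 0.1001) barely exceeded it in size. EIF2AK2, the RNA-activated kinase PKR that stops translation, differed little between lines, at 11.07 and 10.99 in RS4;11 and SEM, against 10.98 and 11.12 in NALM6 and REH. OASL, a catalytically inactive relative of the oligoadenylate synthases, stayed near the bottom of the scale, between 4.64 in both translocation lines and 4.81 in NALM6. The DNA sensor gene IFI16 was at 11.63 in both RS4;11 and SEM, against 12.05 in NALM6 and 11.60 in REH. IFIH1, the RNA sensor MDA5, was at 7.28 and 6.96 in RS4;11 and SEM, against 7.27 in NALM6 and 8.53 in REH. REH thus stood 2.38-fold above the next line for IFIH1. DDX60, a helicase of the same pathway, varied 4.29-fold without regard to group, at 6.59 and 7.87 in RS4;11 and SEM, against 6.27 and 8.37 in NALM6 and REH.

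The oligoadenylate synthases make the messenger that activates RNase L, and their genes lie side by side. OAS1 was at 7.66 and 7.29 in RS4;11 and SEM, against 6.90 and 8.21 in NALM6 and REH. OAS3 had the same order of lines with a wider spread, at 7.498 and 7.32 in RS4;11 and SEM, against 6.44 in NALM6 and 8.79 in REH. REH was highest and NALM6 lowest for both, and the group differences were -0.08 (SE 0.53, adjusted p = 0.972) and -0.21 (SE 0.92, adjusted p = 0.957). OAS2 followed another order, at 9.89 in RS4;11 but 8.03 in SEM, against 10.18 in NALM6 and 9.70 in REH. SEM lay at least 3.18-fold below each other line for OAS2.

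Genes that block entry, assembly or replication of viruses held both directions. MX1, a dynamin-like GTPase active against influenza viruses, was at 5.88 in RS4;11 and 5.40 in SEM, against 7.59 in NALM6 and 6.69 in REH (difference -1.50, SE 0.40, adjusted p = 0.474). Its neighbour MX2, a restriction factor of HIV, was at 8.53 and 7.45 in RS4;11 and SEM, against 8.91 and 9.40 in NALM6 and REH (difference -1.17, SE 0.47, adjusted p = 0.603). SEM was lowest for both MX genes, and without SEM the MX2 difference was -0.62. SAMD9L, an antiviral inhibitor of translation, was at 8.72 and 8.54 in RS4;11 and SEM, against 9.29 in NALM6 and 10.23 in REH (difference -1.13, SE 0.38, adjusted p = 0.537, and -0.66 without REH). ISG20, an RNA exonuclease, lay the other way, at 7.58 and 7.43 in RS4;11 and SEM, against 6.85 in NALM6 and 6.93 in REH. Its difference of 0.61 (SE 0.11, adjusted p = 0.337) was 1.53-fold. BST2, or tetherin, which holds budding virions at the cell surface, was at 8.06 and 8.14 in RS4;11 and SEM, against 7.57 and 7.77 in NALM6 and REH (difference 0.44, SE 0.12, adjusted p = 0.473). For SAMD9 and the ubiquitin ligase gene TRIM22 the ranges over the lines were 0.31 and 0.28.

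RSAD2 and IFITM1 were set apart by REH. RSAD2 encodes viperin, an enzyme that makes a chain-terminating nucleotide, and was at 5.37 and 5.50 in RS4;11 and SEM, against 5.11 and 7.83 in NALM6 and REH. IFITM1, which hinders fusion of virus and cell membranes, was at 9.12 and 9.01 in RS4;11 and SEM, against 8.996 in NALM6 and 10.56 in REH. The other 3 lines lay within 0.39 of each other for RSAD2 and within 0.12 for IFITM1, and REH lay 5.03-fold and 2.71-fold above the next line.

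PARP9, a protein of the PARP family, and the ubiquitin ligase gene DTX3L act as a pair in one complex. They start in opposite directions with 37 bases between them. PARP9 was at 7.31 in RS4;11 and 7.003 in SEM, against 8.48 in NALM6 and 8.31 in REH. Its means were 7.16 ± 0.22 with t(4;11) and 8.39 ± 0.12 without it (SD, n = 2 lines each), or 2.36-fold apart (difference -1.24, SE 0.16, adjusted p = 0.279). DTX3L was at 10.28 and 10.39 in RS4;11 and SEM, against 10.60 and 10.71 in NALM6 and REH, with a difference of -0.32 (SE 0.10, adjusted p = 0.52). PARP14, a mono-ADP-ribosyltransferase in the same region, had -0.25 (SE 0.13, adjusted p = 0.681). All 3 genes were lower in both translocation lines than in both other lines, as were 19.8% of all genes. The gap between the groups was 1.0007 for PARP9, 0.21 for DTX3L and only 0.098 for PARP14.

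Of the other interferon-induced genes, XAF1, which counters the apoptosis inhibitor XIAP, was higher in the translocation lines, at 10.31 in RS4;11 and 10.87 in SEM, against 9.37 in NALM6 and 9.54 in REH. Its difference was 1.14 (SE 0.24, adjusted p = 0.406), or 2.2-fold. IFI44 had the widest range of all members, at 7.29 and 6.43 in RS4;11 and SEM, against 5.62 and 8.48 in NALM6 and REH, and both the highest and the lowest value fell in lines without the translocation. IFI44L lay between 4.87 (NALM6) and 5.68 (REH), and IFI27 between 4.89 (NALM6) and 5.24 (REH), both close to the 25th percentile of an array (4.97 to 5.02). IFI6, a protein of the endoplasmic reticulum, was at 8.84 and 9.37 in RS4;11 and SEM, against 9.12 in NALM6 and 10.03 in REH. IFI35 ranged over 0.39 only.

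**Figure D3:**
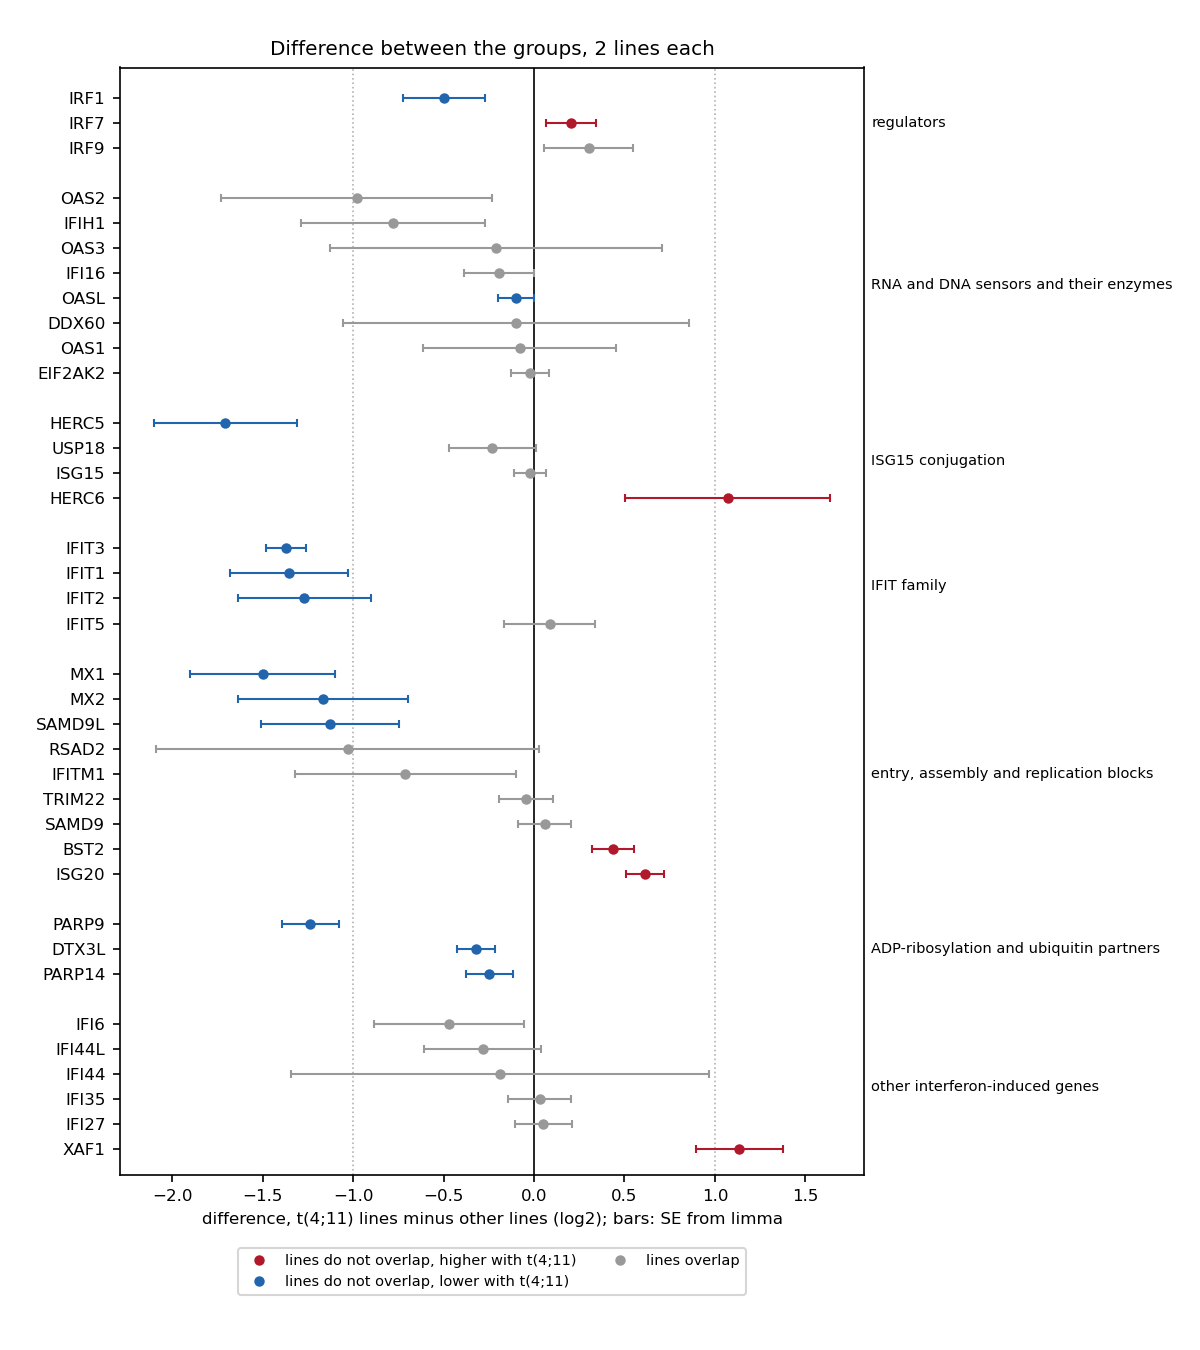
Difference between the means of the translocation lines and of the other lines (log2, x axis) for 37 interferon-stimulated genes, grouped by role. Bars are the SE from limma, and colours mark genes whose lines do not overlap between the groups (blue lower, red higher with t(4;11), grey overlapping). IFIT1, IFIT2, IFIT3, MX1, MX2, HERC5, SAMD9L, RSAD2 and PARP9 lie below -1, and XAF1 and HERC6 above 1, and none passed the adjusted test.

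The members varied more between lines than most genes: 19 had a range of at least 2-fold (51.4%, against 19.3% of all genes) and 7 of at least 4-fold (18.9%, against 7.56%). The median range was 1.19, against 0.38 over all genes. Without genes dim in every line, 10259 of the 18377 genes and 32 of the 37 members were left. Dim genes were therefore a larger part of all genes than of the members. Low levels may be compressed, and the part of level in these contrasts was not tested.

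Compared line by line, REH had the highest level of most of the 37 members. It was the highest of the 4 lines in 22 of 37 members (59.5%), against 25% of all genes, and the lowest in 5 (13.5%, against 33.7%). NALM6 was the lowest in 16 members (43.2%, against 21.9%), SEM in 10 (27%, against 24.5%) and RS4;11 in 6 (16.2%, against 19.9%). The highest line was NALM6 in 8 members (21.6%, against 25%), SEM in 5 (13.5%, against 22.9%) and RS4;11 in 2 (5.41%, against 27.1%). Relative to a gene's mean over the lines, the median member was at -0.06 and -0.11 in RS4;11 and SEM, against 0.00 and 0.30 in NALM6 and REH, whereas the median over all genes lay between -0.03 and 0.01 in each line. For the 43 further interferon-induced genes described below, this median was 0.02 in RS4;11, SEM and NALM6 and 0.05 in REH. With 1 array per line, none of these counts or medians was tested.

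In 5 members REH lay at least 2-fold above each other line (13.5%, against 2.19% of all genes), namely RSAD2, IFITM1, OAS3, IFIH1 and IFI44. In RSAD2 alone was the gap over 4-fold. SEM lay at least 2-fold below each other line in OAS2 and MX2 (5.41%, against 0.702%), and NALM6 in HERC6 (2.7%, against 1.16%). RS4;11 was apart from the rest in 0 members in either direction, against 0.707% of all genes above and 0.669% below. Members for which SEM stood 2-fold above, NALM6 2-fold above or REH 2-fold below all other lines also numbered 0, against 1.64%, 1.19% and 1.25% of all genes.

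The lines of one group differed from each other as well. NALM6 lay at least 2-fold below REH in 8 members (21.6%, against 4.97% of all genes), which were IFI44 (7.22-fold), RSAD2 (6.6-fold), OAS3 (5.11-fold), DDX60 (4.29-fold), IFITM1 (2.95-fold), HERC6 (2.67-fold), OAS1 (2.48-fold) and IFIH1 (2.4-fold). In 0 members was NALM6 at least 2-fold above REH, against 3.65% of all genes. Between the translocation lines, RS4;11 lay at least 2-fold above SEM in OAS2 (3.64-fold) and MX2 (2.12-fold, together 5.41% of members, against 2.49%), and below it in DDX60 (2.43-fold, or 2.7%, against 3.51%). In each of the 8 members with NALM6 at least 2-fold below REH, that spread was larger than the difference between the groups. The same held for other members, such as IFI6 (NALM6 minus REH -0.91, group difference -0.47).

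**Figure D4:**
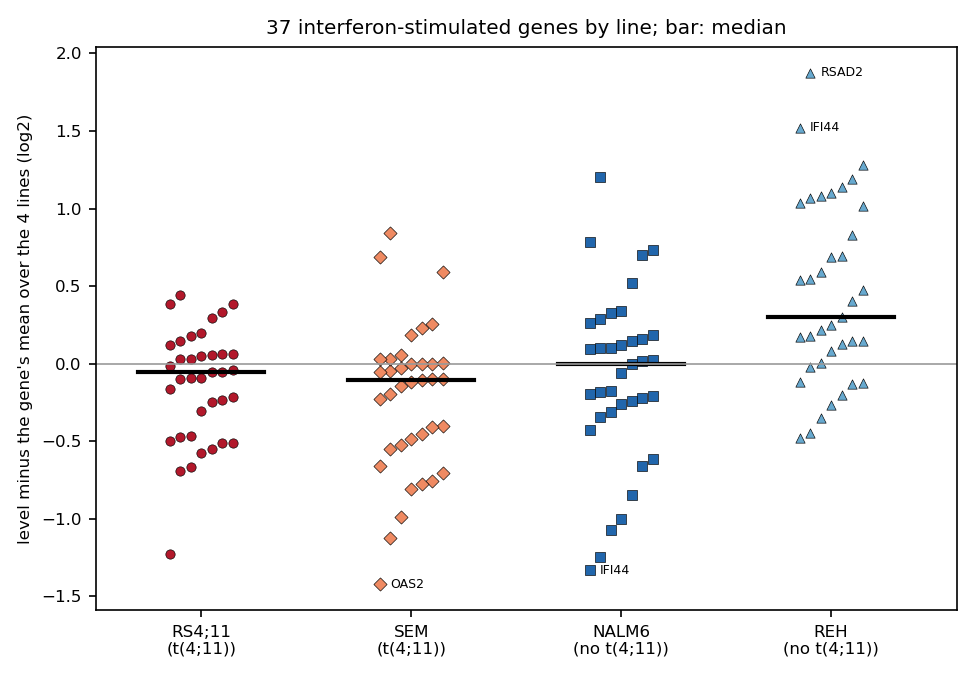
Level of each of the 37 interferon-stimulated genes minus that gene's mean over the 4 lines (log2, y axis), by line, with t(4;11) on the left. Each point is a gene and the bar is the median of the 37. The median is -0.06 in RS4;11 and -0.11 in SEM, against 0.00 in NALM6 and 0.30 in REH, and RSAD2 and IFI44 are the points farthest up in REH.

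Members that are neighbours on a chromosome did not always share a pattern. IFIT2, IFIT3 and IFIT1 were each lower in both translocation lines than in both others, with NALM6 highest for IFIT3 and REH for IFIT1 and IFIT2, while IFIT5, directly beside IFIT1, was not. HERC6 and HERC5 are adjacent and had group differences of opposite sign. SAMD9 and SAMD9L are adjacent as well, and only the second was lower in both translocation lines than in both others, with differences of 0.06 (SE 0.15) for SAMD9 and -1.13 (SE 0.38) for SAMD9L. MX2 and MX1 were likewise each lower in both translocation lines than in both others and lowest in SEM, with REH highest for MX2 and NALM6 for MX1. Both translocation lines lay below both others in 19.8% of all genes. These differences between neighbours are descriptions and were not tested.

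**Figure D5:**
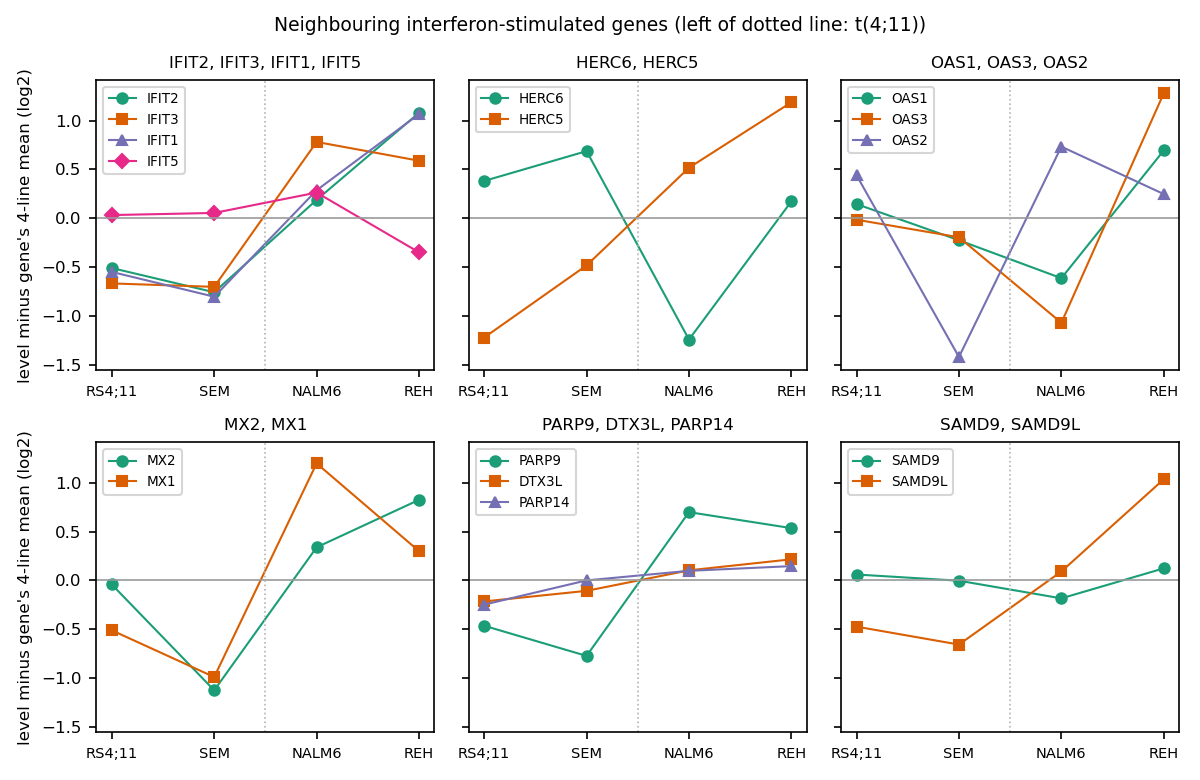
Level minus the gene's mean over the 4 lines (log2, y axis) in 6 groups of neighbouring interferon-stimulated genes, with RS4;11 and SEM left of the dotted line and NALM6 and REH right of it. Each line joins the values of 1 gene. IFIT1, IFIT2 and IFIT3 lie lower left of the dotted line than right of it, IFIT5 does not, and HERC6 and HERC5 have group differences of opposite sign.

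Levels and promoter motifs were set side by side. The 22 measured members with an ISRE core in a window had a median range over the lines of 1.33, and 15 of them were highest in REH. The 8 without a core had a median range of 1.09, with 4 highest in REH. The 7 members with no listed window had 0.58, with 3 highest in REH. ISG15 and EIF2AK2, which hold 2 cores and 1 core, were among the members that varied least.

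The interferon pathway upstream of these genes was described from further lists, in which 0 genes passed limma's adjusted test in either direction. At an unadjusted p under 0.05 there was 1 receptor gene higher (IFNAR2) and 1 lower (IFNGR1), 1 inducer lower (RIGI), 1 inhibitor higher (PTPN2), and 2 further induced genes higher and 3 lower. As shares of the measured genes these are 33.3% of receptors, 6.67% of inducers, 12.5% of inhibitors and 11.6% of further induced genes, against 9.39% of all genes, and 0 of the ligands, of the kinase list and of the other regulatory factors. The probe sets of all 16 measured interferon ligand genes of 21 listed lay at or below 6.55 in every line, under the median of all gene values. IFNB1 was at 4.29 and 4.33 in RS4;11 and SEM, against 4.15 and 4.32 in NALM6 and REH. All 6 receptor genes were measured. IFNAR1 and IFNAR2, the type I receptor, were above the median of all gene values in every line, at 9.46 to 9.72 for IFNAR1 and 8.51 to 8.92 for IFNAR2. IFNGR1, the ligand-binding chain of the interferon gamma receptor, was at 8.58 and 8.63 in RS4;11 and SEM, against 9.23 in NALM6 and 9.53 in REH (difference -0.77, SE 0.15, adjusted p = 0.366). Its partner IFNGR2 was at 8.38 and 8.56 in RS4;11 and SEM, against 7.34 in NALM6 and 8.67 in REH.

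In the list of signalling kinases and their targets, 4 genes were measured, and JAK2, a kinase of the interferon gamma receptor, had the largest difference, -0.87 (SE 0.32, adjusted p = 0.565). Among the 5 other interferon regulatory factors measured, IRF4 was at 10.93 in RS4;11 and 9.74 in SEM, against 11.49 in NALM6 and 5.67 in REH, and IRF8 at 8.47 and 10.09 in RS4;11 and SEM, against 5.75 in NALM6 and 8.67 in REH. These lymphoid factors therefore varied more between lines than IRF1, IRF7 and IRF9 did. All 15 inducers of interferon were measured. TLR7, an endosomal RNA sensor, was at 9.91 in RS4;11 and 5.52 in SEM, against 5.82 in NALM6 and 7.26 in REH. MYD88, the adaptor of Toll-like receptors, was at 10.56 and 10.60 in RS4;11 and SEM, against 10.12 in NALM6 and 8.84 in REH (difference 1.10, SE 0.50, adjusted p = 0.633).

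Of 8 measured inhibitors, SAMHD1 (difference 1.53, SE 0.89), the phosphatase gene PTPN6 (1.42, SE 0.61) and PTPN2 (0.44, SE 0.13) differed most, with adjusted p-values of 0.706, 0.617 and 0.5. Among 43 further interferon-induced genes measured of 45 listed, 21 had a higher and 22 a lower mean with t(4;11), and their median difference was -0.04. The chemokine gene CCL5 was at 9.49 in RS4;11 and 8.73 in SEM, against 7.14 in NALM6 and 8.03 in REH (difference 1.53, SE 0.46, adjusted p = 0.503). GBP4, a guanylate-binding protein, had a difference of -1.31 (SE 0.55, adjusted p = 0.614), and the peptide transporter gene TAP1 one of -1.39 (SE 0.50, adjusted p = 0.565). Relative to a gene's mean over the lines, this longer list had a median of 0.02 in RS4;11, SEM and NALM6 and 0.05 in REH.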

How the data were processed

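Total RNA of 4 human cell lines was measured on 1 array each. The submitters' processing notes name RMA and Partek for the deposited log2 values, with no roles given. Versions and annotation build are not given in sources used here, and the log2 scale was inferred from the values. Without a detection call, no signal over background can be given, and quantile normalization, a step of RMA, removes array-wide differences. Array medians lay between 6.40 and 6.46, and the number of arrays limits the precision.

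Of 32968 probe sets, 19310 had 1 gene symbol, 1752 several and 11906 none listed. A gene was represented by its probe set with the highest mean (18377 genes). Groups follow the labels, with the line as replicate, and p-values measure the spread between lines. Differences (translocation lines minus the others) were tested with limma 3.58.1 in R 4.3.3 (lmFit and eBayes, two-sided), without covariates. P-values were adjusted by Benjamini-Hochberg over every gene tested, and 0.05 was the limit. Residual degrees of freedom were 2 and prior ones 1.34. An exact test of 2 lines against 2 cannot go below p = 0.333. In 5 simulations, 200 of 18377 genes were given a change of known size. Spreads were limma's moderated ones, shuffled over all genes, and the noise was independent between genes and lines. The members varied more between lines than most genes, so these shares need not hold for them. Of the changed genes, limma called 3.2% of 2-fold and 67.2% of 4-fold changes, and 8 further genes per simulation falsely. Parting by at least 2-fold found 20% of 2-fold and 92.8% of 4-fold changes, and 103 further genes per simulation falsely. RefSeq tables (GRCh38.p14) gave promoters and gene order, handled in Python 3.11.15.

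The members, role classes and pathway lists came from general knowledge and were chosen with earlier results of these data known. Full values go to members parted 2-fold between groups or from the other 3 lines, the 6 smallest p-values, the 6 widest and 3 narrowest ranges and the regulators. Values of further members were added, and up to 3 genes per pathway list have the largest differences. IFNB1, IFNAR1, RIGI and the marker genes were named after their values were seen. Alternatives were repeated quantile normalization, centred arrays, mean probe sets, removal of dim genes, all probe sets, other moderation and thresholds, and leaving out each line. Some genes of the lists are not analysed here.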

Additional observations from a re-analysis of the deposited data

How the results depend on the processing

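Under repeated quantile normalization, array centring, averaged probe sets, exclusion of genes dim in every line (32 members left), tests of single probe sets, an intensity trend, robust or no moderation, an adjusted p under 0.1, or 1 line left out, 0 interferon-stimulated genes passed limma's threshold. At an unadjusted p under 0.05 there were 10. The smallest adjusted p among members lay between 0.121 (without NALM6) and 0.568 (without SEM). Over all genes 4 passed, against 9 after repeated quantile normalization, 17 without dim genes, 12 over single probe sets and 0 with no moderation or any line left out. With 1 line left out, 3 to 11 members were parted 2-fold downward (1.86% to 3.71% of all genes) and 0 to 1 upward (1.86% to 2.95%), with fewer lines to part, and the median difference lay between -0.69 and -0.016. Parting by 1.5-fold gave 6 members downward (16.2%, against 2.17% of all genes) and 1 upward (2.7%, against 2.12%), and by 4-fold 0 downward (against 0.267%). Of members apart from each other line, 4-fold left 1 for REH (2.7%, against 0.756% of all genes), 0 for SEM (against 0.207%) and 0 for NALM6 (against 0.457%). With 1 line left out, differences ranged from -1.61 to 1.24 for IFI44, -1.39 to 0.967 for OAS3, -2.39 to 0.33 for RSAD2, -1.49 to 0.0683 for IFITM1, -0.0667 to 0.0207 for ISG15 and -0.0941 to 0.0469 for EIF2AK2. IFIH1 had -1.41 without NALM6 and -0.15 without REH, and OAS2 -1.91 without RS4;11 and -0.05 without SEM. The first 6 were above 0 without REH (all but ISG15), without SEM (IFI44 and EIF2AK2) or without RS4;11 (ISG15). The sign also changed with a line left out for IFIT5, IFI16, IFI27, IFI35, IFI44L, OAS1, DDX60, SAMD9, USP18 and TRIM22. Without REH the difference was 0.95 for DDX60 and 0.57 for OAS1. The causes were not tested. No paired analysis was possible because the 4 lines are separate leukaemias and nothing in the labels pairs them. A group left with 1 line is assumed to vary like the other. Scaling moved the median of all genes by at most 0.05 on the log2 scale. Levels near 5 may be compressed, which limits IFI27, IFI44L and OASL. The same limit may hold for RSAD2 outside REH (5.11 to 5.50), IFIT2 in RS4;11 and SEM (5.43 and 5.18) and MX1 in SEM (5.40). It may also hold for IFIT3 (5.74 and 5.70) and IFIT1 (5.92 and 5.67) in RS4;11 and SEM. ISG15, at 5.68 to 5.76 over the lines, lay at a similar level. Small spreads at such levels, as for IFIT3 with t(4;11) and for ISG15, may reflect this limit, which was not tested.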
